A study of Mus musculus with 4 samples.

Results

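The lipid-associated macrophage genes Trem2, Gpnmb, Lgals3, Fabp5, Cd9, Plin2, Lpl and Syngr1 were followed across single-cell RNA libraries of mouse aorta. They were chosen by symbol, and all 8 were found among the 32285 genes of each of the 4 count matrices. The study made 1 library per group with 10x Genomics chemistry from digested, perfused aortas. The groups were WT mice on normal diet, LysM-DKO mice on normal diet, WT/ApoE-/- mice on western diet, and LysM-DKO/ApoE-/- mice on western diet. The labels give no age, sex, number of animals or length of feeding, and they do not spell out LysM-DKO. The title of the series names epsins, endocytic adaptor proteins, and LysM is the name of the Lyz2 promoter, which drives Cre recombinase in macrophages, monocytes and neutrophils. All western diet mice lacked ApoE and no normal diet mouse did, so diet and ApoE genotype cannot be told apart. Apoe itself was at 7012 and 5435 CPM (UMIs of the gene per 1e6 UMIs of the class) in macrophages of the normal diet libraries and at 8.44 and 8.55 CPM in those of the western diet libraries. Because each group is 1 library, no difference between groups could be tested. Intervals of levels, shares and ratios of single genes are exact 95% intervals that cover counting error only. The range beside a median of the 8 genes is the median of their lower bounds and of their upper bounds. It is not a 95% interval of the median.

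When macrophages take up modified lipoproteins in the artery wall they store cholesterol esters and become foam cells. Many of them then express a shared set of genes, often called the lipid-associated programme. TREM2 is a surface receptor for lipids that signals through the adaptor TYROBP, and GPNMB is a membrane glycoprotein of lysosomes and the cell surface. Galectin-3, the product of Lgals3, is a sugar-binding lectin. FABP5 carries fatty acids in the cytosol, PLIN2 coats lipid droplets, and LPL releases fatty acids from triglyceride-rich lipoproteins. CD9 is a tetraspanin found in many cell types, and SYNGR1 is a membrane protein of synaptic-type vesicles.

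On GRCm38 the genes lie at chr17:48346401-48354147 (Trem2), chr6:49036546-49070929 (Gpnmb), chr14:47367751-47386160 (Lgals3), chr3:10012548-10016607 (Fabp5), chr6:125460266-125494791 (Cd9), chr4:86648386-86670060 (Plin2), chr8:68880491-68907448 (Lpl) and chr15:80091334-80119501 (Syngr1). Cd9 and Plin2 are on the minus strand and the other 6 on the plus strand. Cd9 overlaps Gm26728 and Gm28809 on the other strand and has a pseudogene, Cd9-ps, and Syngr1 overlaps Rpl3 on the other strand. RefSeq promoters on GRCm38.p6, 250 bases before to 50 after the start site, were matched for 6 of the 8 genes, not for Fabp5 and Lpl. The promoters of Trem2 and Gpnmb are shown because both genes were low in the normal diet libraries and high in the others, and that of Plin2 because its level changed least. Syngr1 had the same pattern of levels as Trem2 and Gpnmb. Its promoter is not shown, and it holds a half-site and no AP-1 letters. Capitals mark matches, on either strand, to the letters of 4 motifs: AP-1 (TGANTCA), PU.1 (GAGGAAG), the E-box (CACGTG) and the nuclear receptor half-site (AGGTCA). The windows are chr17:48346151-48346450 (plus strand), chr6:49036268-49036567 (plus strand) and chr4:86670010-86670309 (minus strand), and each sequence runs 5′ to 3′ in the direction of its gene.
Trem2: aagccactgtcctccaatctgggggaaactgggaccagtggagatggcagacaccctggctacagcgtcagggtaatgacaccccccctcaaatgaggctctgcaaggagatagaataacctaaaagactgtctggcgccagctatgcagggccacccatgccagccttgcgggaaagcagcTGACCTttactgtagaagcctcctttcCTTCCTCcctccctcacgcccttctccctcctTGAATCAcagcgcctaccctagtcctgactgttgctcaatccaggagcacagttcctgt
Gpnmb: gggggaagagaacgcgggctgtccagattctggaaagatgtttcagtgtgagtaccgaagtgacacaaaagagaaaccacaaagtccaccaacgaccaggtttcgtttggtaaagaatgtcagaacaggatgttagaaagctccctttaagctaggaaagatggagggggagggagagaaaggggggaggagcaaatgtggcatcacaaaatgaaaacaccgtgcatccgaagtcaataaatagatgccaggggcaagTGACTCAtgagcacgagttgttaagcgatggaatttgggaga
Plin2: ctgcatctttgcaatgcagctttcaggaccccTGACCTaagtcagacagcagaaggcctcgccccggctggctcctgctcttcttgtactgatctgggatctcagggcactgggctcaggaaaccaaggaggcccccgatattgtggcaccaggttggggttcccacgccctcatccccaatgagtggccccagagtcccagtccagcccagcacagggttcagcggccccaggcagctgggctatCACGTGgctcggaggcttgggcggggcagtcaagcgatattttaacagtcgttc
Among the 6 promoters, the AP-1 letters were in those of Gpnmb and Trem2, where 7.81% of 32851 RefSeq promoters of the same length hold them. The Gpnmb match lies 8 bases after the RefSeq start site of its gene and the Trem2 match 9 bases before that of its own. For Gpnmb, Cd9 and Lgals3 the RefSeq start site differs from the gene start in the positions given above. The Lgals3 window, chr14:47373610-47373909, lies inside the gene as given there. The Trem2 promoter also holds the PU.1 letters, found in 13.6% of promoters, and the half-site, found in 16.3%. Half-sites were also in the promoters of Plin2 and Syngr1, and the Plin2 promoter holds the E-box letters, found in 7.15%. The M-box letters CATGTG, in 14.2% of promoters, were matched in Cd9. The Lgals3 promoter held none of the motifs searched, and neither TATAAA nor 2 half-sites with 1 base between them was in any of the 6. A match describes the letters and is no evidence of binding.

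Barcodes with at least 1000 UMIs (unique molecules) and at most 10% mitochondrial UMIs were kept, which left 7758, 8230, 13744 and 8133 barcodes in the order of groups given above. That order is used for all series of 4 values below. A barcode was called a macrophage where its C1qa, C1qb and C1qc UMIs summed to at least 5, which gave 92, 208, 939 and 135 barcodes, or 1.19%, 2.53%, 6.83% and 1.66% of those kept. In all, 5 macrophage markers outside the rule summed to between 1289 and 1453 CPM in these barcodes, and to at most 100 CPM in any other class. No macrophage barcode was shared between libraries. Median depth in macrophages was 4708.5, 4715, 2796 and 4025 UMIs, so the WT/ApoE-/- library was the shallowest per barcode. Many macrophage barcodes also met the rule of another class, mostly smooth muscle: 60.9%, 63.9%, 43.5% and 37.0%. No doublet caller was run. The C1q sum separated macrophages cleanly in the LysM-DKO/ApoE-/- library, where 0 barcodes had a sum of 5 to 6, but not in the WT/ApoE-/- library, where 205 had 5 to 6 and 385 had 3 to 4. The normal diet libraries also differed from the western diet ones in Xist (973 and 951 against 0.608 and 0.608 CPM over all barcodes), in the summed Y-linked genes (0.0975 and 0.138 against 182 and 191 CPM) and in the Cell Ranger version in their headers (6.0.1 against 6.1.2), so these cannot be told apart from diet either. Epn1, an epsin gene, was at 81.7, 54.5, 52.4 and 42.7 CPM in macrophages and Epn2 at 35.6, 33.6, 33.2 and 15.7 CPM. Which exons were deleted is not given in the sources used here, so these tag counts do not check the labels. Lyz2, the gene whose promoter gives LysM its name, was at 3696, 977, 4126 and 798 CPM.

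Trem2 was at 107 CPM (51 UMIs) in WT and 79.0 CPM (87 UMIs) in LysM-DKO macrophages on normal diet. On western diet it was at 839 CPM (3280 UMIs) in WT/ApoE-/- and 560 CPM (393 UMIs) in LysM-DKO/ApoE-/- macrophages. The normal diet intervals overlap (79.5 to 140 and 63.3 to 97.5 CPM), and the western diet intervals (810 to 868 and 506 to 618 CPM) lie apart from them and from each other. Gpnmb had 3 UMIs in WT (6.28 CPM) and 21 in LysM-DKO macrophages (19.1 CPM) on normal diet, against 952 and 868 CPM on western diet. Those 3 and 21 UMIs came from 2 and 6 barcodes. Cd9, the tetraspanin, was at 243 and 157 CPM in the normal diet libraries and at 1220 and 554 CPM in the western diet ones, so the WT/ApoE-/- library alone exceeded 1000 CPM.

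Lgals3 was at 335, 604, 2419 and 2042 CPM, with intervals that do not overlap between any of the libraries. Fabp5 was at 79.6, 929, 2130 and 1798 CPM, and the LysM-DKO library on normal diet stood far above the WT library of the same diet. Plin2, the droplet coat, was at 507, 357, 529 and 587 CPM, the narrowest spread of the 8 genes. Its intervals in WT (445 to 575 CPM) and WT/ApoE-/- macrophages (506 to 552 CPM) overlap, and the LysM-DKO library on normal diet was the lowest. Lpl was at 44.0, 49.1, 417 and 195 CPM. Syngr1 was near absent on normal diet, with 1 and 3 UMIs, and was at 243 and 155 CPM on western diet (949 and 109 UMIs). A count of 0 in macrophages would still allow up to 6.28, 2.73, 0.767 and 4.27 CPM, so the 1 and 3 Syngr1 UMIs lie at or under these limits.

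**Figure D1:**
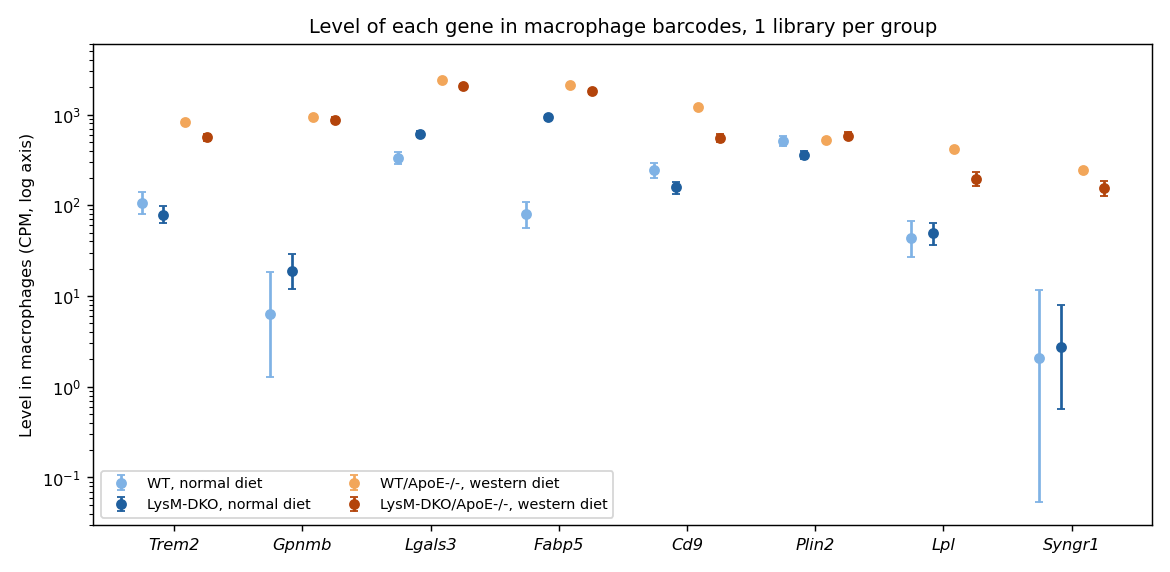
Level of the 8 genes in macrophage barcodes (CPM, log axis), 1 point per library with its exact 95% Poisson interval. Plin2 spans 357 to 587 CPM over the 4 libraries, while Gpnmb goes from 6.28 CPM in WT on normal diet to 952 CPM in WT/ApoE-/- on western diet.

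Trem2 was highest in macrophages in every library. They held 66.2%, 59.6%, 68.1% and 73.7% of all Trem2 UMIs, those in barcodes that were not kept included. The Trem2 level was 212, 73.8, 56.2 and 249 fold that of all other kept barcodes, and it was at 0 CPM in B and T barcodes of the WT library on normal diet. After thinning to 1000 UMIs, Trem2 was detected in 41.4% of the 939 WT/ApoE-/- macrophages and in 0 of 315 T barcodes of that library. It was also detected in 4.19% of 2123 barcodes of no class and 1.44% of 8836 smooth muscle barcodes. Before thinning the macrophage and T shares were 61.3% and 1.59%, at median depths of 2796 and 2244 UMIs. Lgals3 was 17.0, 16.4, 13.1 and 46.4 fold and Plin2 23.3, 10.3, 14.9 and 19.9 fold above the other barcodes. Of all genes counted, 16%, 12.4%, 12.2% and 18.4% were at least 2 fold higher in macrophages in the 4 libraries, and 4, 5, 7 and 7 of the 8 genes were. Syngr1 is among the 4 and the 5 on only 1 and 3 UMIs. Its log2 intervals there (-2.07 to 6.30 and -0.94 to 3.05) include no difference. Of its 20 UMIs in WT on normal diet, 25% and 30% lay in barcodes that were not kept. It was thus under the 20 UMIs required of the genes counted in that library, although the 4 includes it. On western diet Syngr1 was 75.8 fold higher in WT/ApoE-/- macrophages than in the other barcodes of that library.

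Cd9 did not follow this pattern. It was lower in macrophages than in the other barcodes in both normal diet libraries (0.379 and 0.270 fold) and in LysM-DKO/ApoE-/- (0.533 fold), and near them in WT/ApoE-/- (1.16 fold). In smooth muscle it was at 746, 686, 1034 and 1035 CPM, and endothelial cells and fibroblasts held similar levels. Lgals3 outside macrophages was at 19.8, 36.7, 184 and 44.0 CPM, highest in the WT/ApoE-/- library, where fibroblasts were at 302 CPM and smooth muscle at 130 CPM. Trem2 outside macrophages was also highest in that library, at 43.0 CPM in barcodes of no class and 23.0 CPM in fibroblasts, and free RNA as its source was not tested. Gpnmb on normal diet was found mainly in fibroblasts, at 104 and 58.7 CPM, which held 55.5% and 39.2% of all Gpnmb UMIs of those libraries. On western diet fibroblasts stayed at 67.5 and 78.5 CPM, while 61.5% and 53.5% of Gpnmb UMIs were in macrophages. Lpl on normal diet was likewise higher in fibroblasts (219 and 344 CPM) than in macrophages. On western diet the order was turned, with 140 and 84.9 CPM in fibroblasts. Fabp5 on normal diet was higher in endothelial cells of the WT library (113 CPM) than in its macrophages, and endothelial cells on western diet were at 41.1 and 45.0 CPM.

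**Figure D2:**
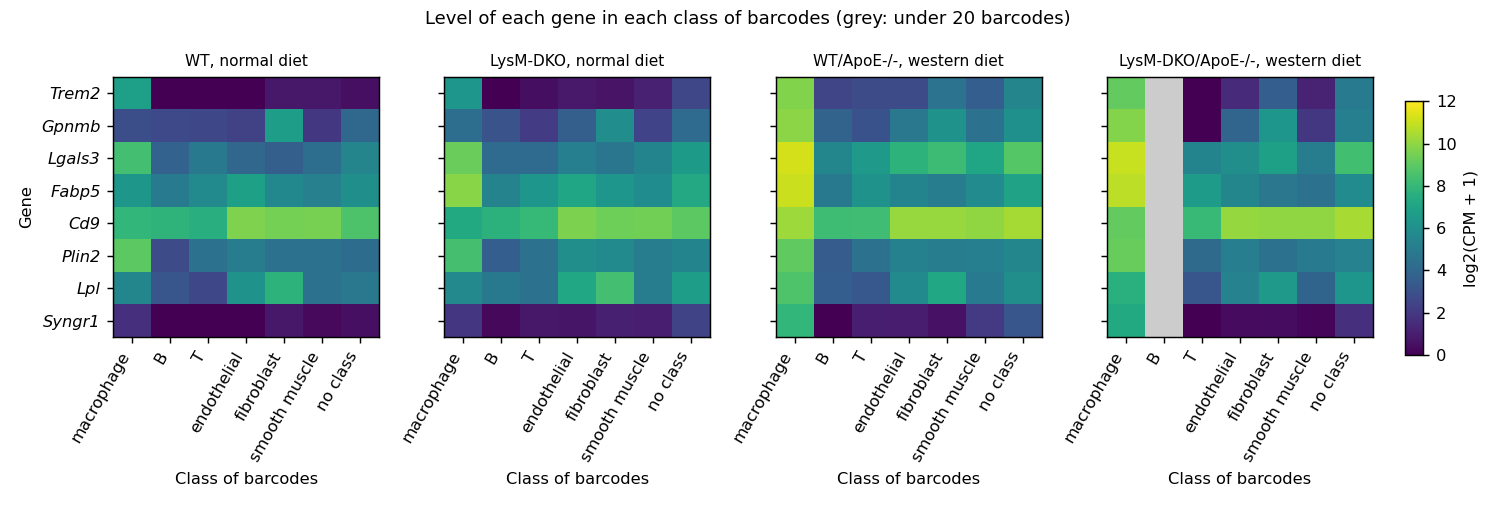
Level of each gene (colour, log2 of CPM + 1) by class of barcodes in each library, with grey where a class has under 20 barcodes. Trem2 and, on western diet, Syngr1 are brightest in the macrophage column, while Cd9 is bright in endothelial, fibroblast and smooth muscle barcodes of all libraries.

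Comparing western diet with normal diet in macrophages of WT mice, 7 of the 8 genes were at least 2 fold higher, where 21% of the 10342 counted genes were, and none was 2 fold lower, where 8.71% were. The median log2 ratio of the 8 genes was 3.09 (2.63 to 3.67), beside 0.25 for all counted genes. Gpnmb had the highest ratio, 7.02 on the log2 scale (5.70 to 9.52), which rests on 3 UMIs in the normal diet library. Syngr1 followed at 6.27 (4.37 to 12.16), resting on 1 UMI. Fabp5 was at 4.72, Lpl at 3.21, Trem2 at 2.96, Lgals3 at 2.85 and Cd9 at 2.32. Plin2 differed by 0.06 (-0.13 to 0.26), so the droplet coat gene was the exception.

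In LysM-DKO mice the same comparison gave 6 of 8 genes at least 2 fold higher, where 7.11% of 7668 counted genes were, and none lower, where 6.46% were. The median was 1.90 (1.59 to 2.28), beside 0.10 for all counted genes. Syngr1 was at 5.62, Gpnmb at 5.47, Trem2 at 2.82, Lpl at 1.98, Cd9 at 1.82 and Lgals3 at 1.76. Fabp5 at 0.95 and Plin2 at 0.72 did not reach 2 fold. Leaving out of each library the 1 barcode with most Fabp5 UMIs put Fabp5 at 1.77, so that this count depends on single barcodes. Summed smooth muscle markers in macrophage barcodes were at 4827, 5040, 9402 and 5738 CPM, all 6 markers being detected in each library. Their part in these ratios was not tested. Without the barcodes that met another class, 7 genes were at least 2 fold higher in either genotype, with medians of 3.53 (WT) and 2.75 (LysM-DKO).

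On western diet, 7 of the 8 genes were lower in LysM-DKO/ApoE-/- than in WT/ApoE-/- macrophages, and the median log2 ratio of all 8 was -0.41 (-0.53 to -0.26), beside -0.05 for all counted genes. The 2 fold mark was passed by 2 of them, Cd9 at -1.14 (-1.29 to -0.99) and Lpl at -1.09 (-1.36 to -0.84), where 9.1% of 10418 counted genes were 2 fold lower and 4.1% 2 fold higher. Syngr1 was at -0.64, Trem2 at -0.58, Lgals3 at -0.24, Fabp5 at -0.24 and Gpnmb at -0.13. Plin2 alone was on the other side, at 0.15 (-0.01 to 0.30). Both 2 fold differences were also found in macrophages that met no other class, where Cd9 was at 1327 and 526 CPM and Lpl at 561 and 276 CPM. Fibroblast markers moved in the same direction. Their sum over all 6 markers was 2653 CPM in WT/ApoE-/- and 543 CPM in LysM-DKO/ApoE-/- macrophage barcodes, with 5 of the 6 at least 2 fold lower in the latter. In macrophages that met no other class it was 1215 and 108 CPM. Fibroblasts of these libraries were at 1137 and 1018 CPM of Cd9 and at 140 and 84.9 CPM of Lpl. The part of these markers in the Cd9 and Lpl differences was not tested. The size of these ratios moved with the C1q threshold. With a C1q sum of at least 2, which added many barcodes to the WT/ApoE-/- library (1671 in place of 939) and few to the other (137 in place of 135), the median was -0.01. With at least 10 it was -0.65. In the WT/ApoE-/- library the 205 barcodes just inside the threshold had 242 CPM of Trem2 and 380 CPM of Gpnmb, and the 385 just outside had 134 and 140 CPM.

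On normal diet the 8 genes did not move as a group between the genotypes. Setting LysM-DKO against WT macrophages gave a median log2 ratio of 0.08 (-0.67 to 1.03), beside 0.05 for all counted genes. Of the 7 genes with at least 20 UMIs, Fabp5 at 3.53 (3.08 to 4.05) and Gpnmb at 1.41 (-0.14 to 3.99) were at least 2 fold higher, where 6.55% of 7068 genes were, and none was 2 fold lower, where 2.39% were. The Gpnmb interval includes no difference. Lgals3 was at 0.85 (0.60 to 1.11), Cd9 at -0.63 (-0.98 to -0.28) and Plin2 at -0.51 (-0.74 to -0.27). For Trem2 (-0.44) and Lpl (0.14) the intervals also include 0. Lgals3 changed sign, to -0.23, without the barcodes that met another class.

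**Figure D3:**
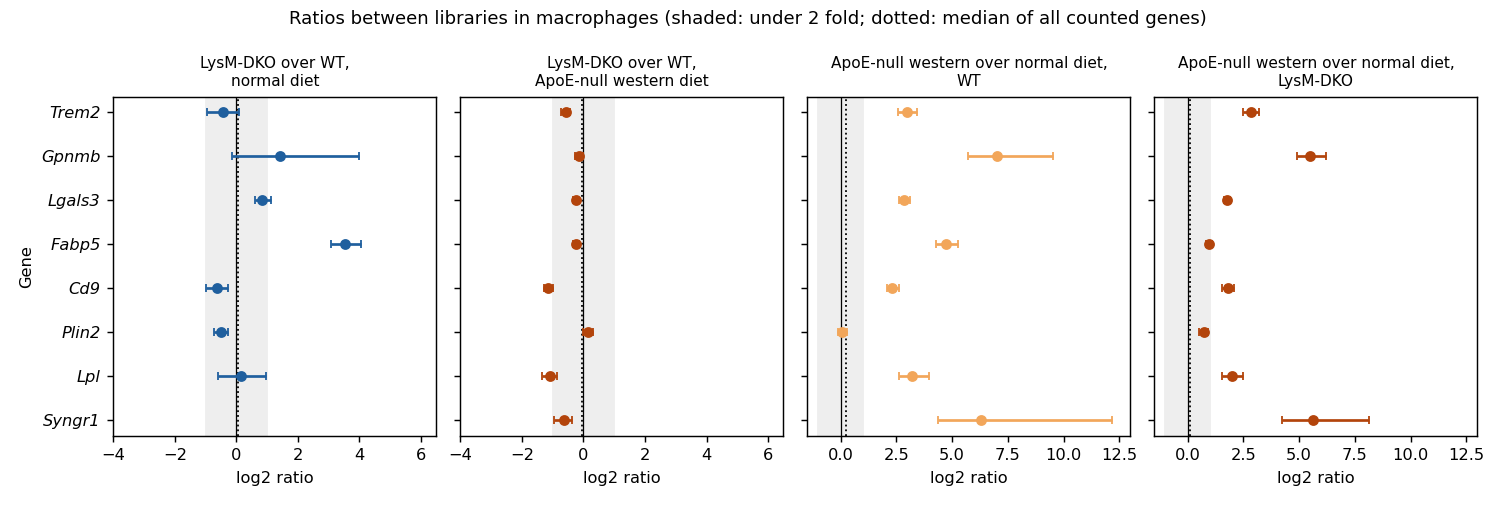
log2 ratios between libraries for the 8 genes in macrophages, with exact 95% counting intervals, 1 panel per comparison; shading marks under 2 fold and the dotted line the median of all counted genes. In the western diet panels Plin2 is nearest to 0 (0.06 and 0.72), and in the normal diet genotype panel Fabp5 is farthest to the right (3.53). Syngr1 is left out there, with 1 and 3 UMIs.

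The Fabp5 level of LysM-DKO macrophages on normal diet came from few barcodes. In all, 5 of 208 barcodes held 86.3% of its 1023 UMIs, and 1 barcode held 546. That barcode had 23674 UMIs, 391 of them of Cxcl13, a B cell attracting chemokine, and none of Trem2. It also held 44 UMIs of Lgals3, 6 of Gpnmb and 4 of Plin2, and 0 of Cd9, Lpl and Syngr1. The 15 barcodes with a Cxcl13 UMI, a division chosen after these values were seen, held 79.9% of Fabp5 and were at 8008 CPM, against 206 CPM in the other 193. Together they had 1 Trem2 UMI. In the WT library on normal diet, 10 macrophage barcodes had a Cxcl13 UMI and none of these had Fabp5. On western diet the barcode with most Fabp5 in WT/ApoE-/- (479 UMIs) had 19 of Trem2, 103 of Gpnmb and 75 of Lgals3. Without the barcode richest in Fabp5 in each library the normal diet log2 ratio between the genotypes was 4.07, since the WT library also lost 26 of its 38 UMIs. In B cell markers, too, the libraries differed, with a sum of 142, 1205, 86.2 and 52.7 CPM in macrophage barcodes, and their part in the Fabp5 difference was not tested.

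Co-detection was examined after each macrophage barcode was thinned to 1000 UMIs, which left none out. At least 4 of the 8 genes were detected in 1 of 92 (1.09%, 0.0275 to 5.91%) and 2 of 208 barcodes (0.962%, 0.117 to 3.43%) on normal diet. On western diet the share was 337 of 939 (35.9%, 32.8 to 39.1%) in WT/ApoE-/- and 24 of 135 (17.8%, 11.7 to 25.3%) in LysM-DKO/ApoE-/- mice. Before thinning the shares were 16.3%, 12.5%, 60.2% and 40.7%. In other classes the highest thinned share was 3.01%, in the barcodes of no class of the WT/ApoE-/- library. All 8 genes were found together in 8 barcodes of WT/ApoE-/- and 1 of LysM-DKO/ApoE-/- mice. The mean number of genes detected was 0.957, 0.928, 2.92 and 1.79.

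**Figure D4:**
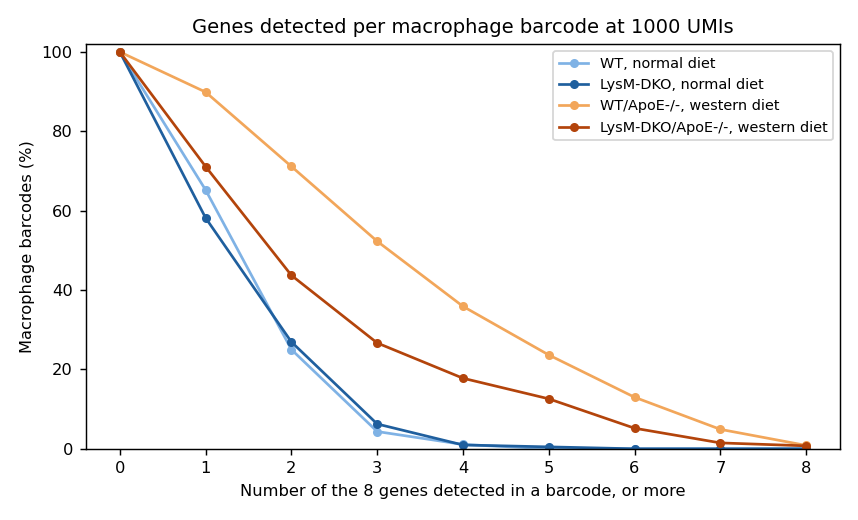
Share of macrophage barcodes (%) in which at least the number of genes on the horizontal axis was detected at 1000 UMIs, 1 line per library. The normal diet lines reach 1.09% and 0.962% at 4 genes, and the western diet lines 35.9% and 17.8%.

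On western diet most pairs of genes were found together more often than the product of their shares gives. In WT/ApoE-/- macrophages this held for 28 of 28 pairs, with a median ratio of 1.36, and for 23 the interval of the observed share lay above the product. Gpnmb and Fabp5 had the highest ratio, together in 189 barcodes where the product of shares gives 82.9, a ratio of 2.28. Of the barcodes with Gpnmb, 78.4% also had Fabp5. Cd9 with Plin2 had the lowest ratio, at 1.01. The larger share of a pair sets a ceiling on its ratio, so the order of pairs depends in part on detection. Cd9 was detected in 58.5% of these barcodes, Fabp5 in 34.4% and Gpnmb in 25.7%. Pairs of other genes were not examined. In LysM-DKO/ApoE-/- macrophages 14 pairs had at least 5 barcodes by the product, and 13 of these were above it, with a median ratio of 1.53, and for 6 the interval lay above the product. Among these 14 pairs Trem2 with Gpnmb was highest at 2.68, and Cd9 with Plin2 lowest at 0.814. Gpnmb with Fabp5 was under the minimum, with 4.4 barcodes by the product, but was found together in 19, a ratio of 4.32. On normal diet only 2 and 5 pairs had at least 5 barcodes by the product. Of these, Lgals3 with Fabp5 in LysM-DKO macrophages (1.93) was the highest.

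Across single barcodes of the WT/ApoE-/- library, the correlation of each gene with the sum of the other 7 was 0.58 for Lgals3, 0.54 for Gpnmb, 0.53 for Fabp5, 0.42 for Lpl, 0.41 for Trem2, 0.34 for Plin2, 0.34 for Syngr1 and 0.22 for Cd9 (n = 939 barcodes of 1 library at equal depth). In LysM-DKO/ApoE-/- macrophages (n = 135) the values were 0.67 for Gpnmb and Lgals3, 0.27 for Cd9 and 0.14 for Plin2. On normal diet those that could be computed were at or under 0.28, and Syngr1 in WT could not be. Lgals3, Gpnmb and Fabp5 had the 3 highest values in both western diet libraries.

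Within barcodes that held 4 or more of the genes, the genes were read again in both western diet libraries. Trem2 was at 1523 CPM in WT/ApoE-/- and 1397 CPM in LysM-DKO/ApoE-/- barcodes, Lgals3 at 4480 and 4774 CPM, Fabp5 at 5022 and 5359 CPM, Gpnmb at 2261 and 2853 CPM, and Plin2 at 968 and 1131 CPM. Syngr1 was at 515 and 455 CPM. Cd9 (1696 and 893 CPM) and Lpl (905 and 579 CPM) had the widest ratios between the libraries, as over all macrophages. These barcodes were chosen by the same genes, so the levels are descriptive, and no difference was tested. Median depth was 2597 and 7150.5 UMIs in the WT/ApoE-/- and LysM-DKO/ApoE-/- sets.

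Other genes were then read in macrophage barcodes grouped by how many of the 8 genes they held. The list of 25 broader foam cell genes, none of them a member, summed to 15720, 28585 and 67147 CPM in WT/ApoE-/- barcodes with 0 to 1, 2 to 3 and 4 or more of the genes. The same sums in LysM-DKO/ApoE-/- barcodes were 13210, 23352 and 50649 CPM. Of 24 genes counted in WT/ApoE-/-, 24 were higher in barcodes with 4 or more than in those with 0 to 1, and 20 by at least 2 fold, where 41.9% of 9073 counted genes were higher, 7.18% by 2 fold, and 16.7% were 2 fold lower. In LysM-DKO/ApoE-/-, 21 of 23 were higher and 20 by at least 2 fold, where 46.1% of 3794 counted genes were higher, 11% by 2 fold, and 19.5% were 2 fold lower. Ctsd, a lysosomal protease, went from 445 to 5667 CPM, and Spp1, the secreted glycoprotein osteopontin, from 2930 to 19430 CPM. In LysM-DKO/ApoE-/- barcodes Spp1 went from 82.5 to 4650 CPM. Abcg1, the cholesterol exporter named in the title of the series, was at 93.1 and 568 CPM in WT/ApoE-/- and at 42.9 and 558 CPM in LysM-DKO/ApoE-/- barcodes at these ends. Tyrobp, the signalling partner of TREM2, was at 472 and 1397 CPM in WT/ApoE-/- barcodes. Of 10 TREM2 signalling genes there, 8 were higher, 3 by at least 2 fold. In LysM-DKO/ApoE-/-, 6 of 8 were higher, 4 by at least 2 fold, and 0 were 2 fold lower in either library. Of 9 counted genes of lipid droplets and fatty acid handling in WT/ApoE-/-, 4 were higher, 1 by 2 fold, and 2 were 2 fold lower. In LysM-DKO/ApoE-/-, 3 of 5 were higher, 2 by 2 fold, and 1 was 2 fold lower.

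Most resident and inflammatory genes ran against the broader foam cell genes in the western diet libraries. Barcodes with 4 or more genes were set against those with 0 to 1. In WT/ApoE-/-, 9 of 13 counted resident genes were at least 2 fold lower and 3 at least 2 fold higher. Of 15 inflammatory genes, 9 were 2 fold lower and 0 higher, where 16.7% and 7.18% of all counted genes were. In LysM-DKO/ApoE-/-, 11 of 13 resident genes were 2 fold lower and 1 higher. Of 14 inflammatory genes there, 8 were 2 fold lower and 0 were 2 fold higher, where 19.5% and 11% were. The 14 resident macrophage genes summed to 2461, 1666 and 1616 CPM in WT/ApoE-/- and to 7300, 1634 and 1039 CPM in LysM-DKO/ApoE-/- barcodes. Mrc1, the mannose receptor, was at 583 and 44.0 CPM at the ends of the WT/ApoE-/- range and at 1585 and 27.1 CPM in LysM-DKO/ApoE-/-. The 16 inflammatory genes summed to 18840, 17593 and 6317 CPM in WT/ApoE-/-, and Cxcl2, a neutrophil attracting chemokine, went from 7768 to 2001 CPM. The 15 dissociation stress genes ran in the same order, at 10937, 8394 and 5443 CPM, and smooth muscle markers at 15287, 10401 and 4242 CPM. The share of barcodes that met another class was 55.7%, 46.2% and 30.9% over the 3 ranges of WT/ApoE-/-. The part of these in the pattern was not tested.

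**Figure D5:**
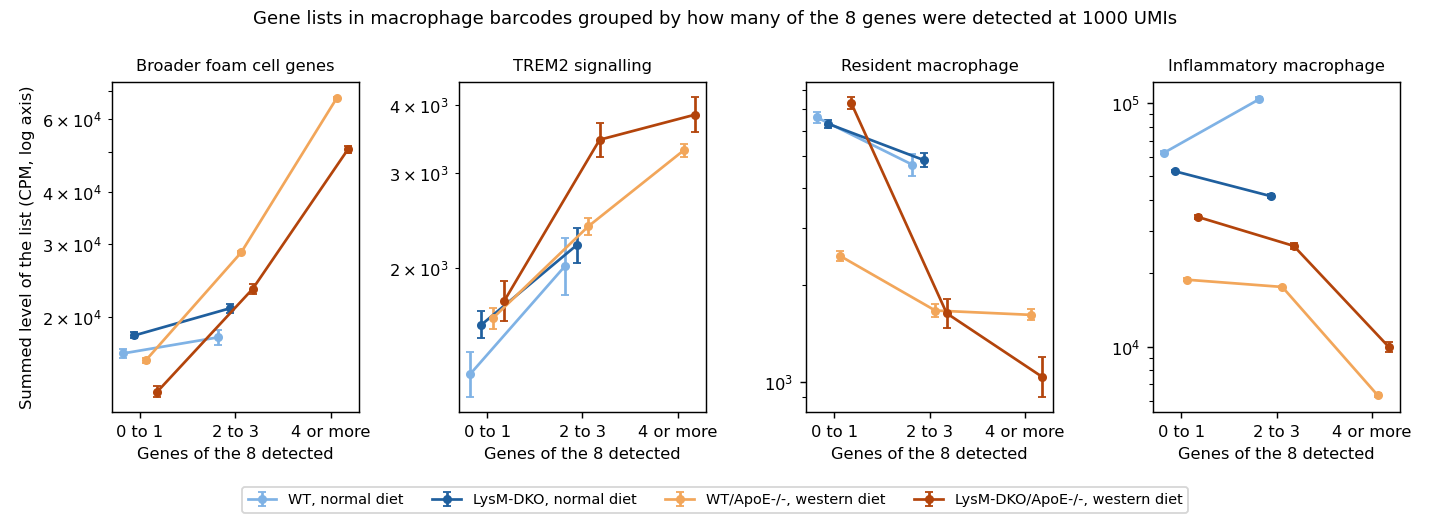
Summed level (CPM, log axis) of 4 gene lists in macrophage barcodes grouped by how many of the 8 genes were detected at 1000 UMIs, with exact 95% Poisson intervals; the normal diet libraries had 1 and 2 barcodes with 4 or more and are drawn only for the first 2 ranges. The broader foam cell list goes from 15720 to 67147 CPM in WT/ApoE-/- and the resident list from 7300 to 1039 CPM in LysM-DKO/ApoE-/-.

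Genes related to the 8 were compared between whole libraries in the same way. Of 10 TREM2 signalling genes, 2 were at least 2 fold higher on western diet in WT macrophages, near the 21% of all counted genes, and 0 were lower, and Tyrobp was at 559, 760, 949 and 1143 CPM. Of 12 counted genes of lipid droplets and fatty acid handling, 3 were at least 2 fold higher and 2 lower in that comparison, where 21% and 8.71% of all counted genes were, and Hilpda, an inhibitor of fat breakdown, was at 79.6, 79.0, 74.9 and 137 CPM. Among paralogs, Cd63, a lysosomal tetraspanin, was at 731, 820, 1774 and 1500 CPM, while Cd81, another tetraspanin, was at 616, 667, 488 and 492 CPM. Fabp4, the fatty acid carrier nearest in name to Fabp5, was at 195, 471, 227 and 194 CPM. Of the 24 counted broader foam cell genes, 13 were 2 fold higher on western diet in WT and 7 in LysM-DKO macrophages, where 21% and 7.11% of all counted genes were, and 1 was lower in each. Spp1 was at 41.9, 93.6, 10769 and 1644 CPM. Between genotypes on western diet the resident list went against the 8 genes, and so did the inflammatory and dissociation stress lists. Of the 24 counted broader foam cell genes, 6 were higher in LysM-DKO/ApoE-/- macrophages, 2 of them by 2 fold, and 1 was 2 fold lower. Their median log2 ratio was -0.20. Of 10 TREM2 signalling genes, 7 were higher, 1 of them by 2 fold, and 1 was 2 fold lower, with a median of 0.15. Of 14 resident genes, 7 were at least 2 fold higher and 1 lower in LysM-DKO/ApoE-/- macrophages, where 4.1% and 9.1% of all counted genes were. Mrc1 was at 253 CPM in WT/ApoE-/- and 752 CPM in LysM-DKO/ApoE-/-. Of 16 inflammatory genes, 15 were higher in LysM-DKO/ApoE-/-, 5 of them by at least 2 fold, and 1 was 2 fold lower, where 4.1% and 9.1% of all counted genes were. Of 15 dissociation stress genes, 12 were higher, 0 of them by 2 fold, and 0 were 2 fold lower. The median log2 ratios of the inflammatory and stress lists were 0.89 and 0.31, beside -0.05 for all counted genes.

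Over 27 points of class and library, the genes whose profile was most like the mean of the 8 included Ctsd (r = 0.96), Creg1 (0.94), Gusb (0.93), Tnfsf13 (0.91), Psap (0.91), Dnase1l1 (0.90), Sirpa (0.90), Itgax (0.90) and Ctsb (0.90), out of 6153 genes. Points of 1 library share its depth and diet, so r is a description. By the same measure Trem2 itself had 0.89 with its 7 companions, and Cd9 had 0.25. Within macrophage barcodes, averaged over the 4 libraries, the highest of 998 genes were Ctsd (mean r = 0.37), Fth1, Ctss, Ctsb, Psap, Cyba, Ctsz, Ftl1, Cd63 and Tyrobp. The lowest were Mrc1 (-0.32), Pf4, Junb, F13a1, Egr1, Zfp36l1, Klf4, Ier3, Hspa1a and Maf. For Ctsd the r was 0.06 and 0.08 in the normal diet libraries and 0.68 and 0.64 in the western diet ones.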

How the data were processed

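Raw UMI counts per gene and barcode were deposited by the authors as filtered 10x Genomics matrices, 1 per library. Per the submitters' processing notes, Cell Ranger 6.1.2, Seurat 4.1.0 and the mm10 build were used, while the file headers name Cell Ranger 6.0.1 for both normal diet libraries and 6.1.2 for both western diet libraries. The deposited counts are not normalized. Libraries held 13831 to 29724 barcodes and 50662515 to 67450979 UMIs, and 12.9% to 47.7% of barcodes had under 1000 UMIs.

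The 8 genes, the gene lists and the class markers were chosen with earlier results of these data known. Each barcode took the first class it matched: macrophage (C1qa, C1qb and C1qc sum of at least 5), B (Cd79a and Ms4a1, 2), T (Cd3d, Cd3e and Trac, 2), endothelial (Pecam1 and Cdh5, 2), fibroblast (Pdgfra and Serpinf1, 3) or smooth muscle (Myh11 and Cnn1, 3). UMIs were summed per library and class and given per 1e6 UMIs of the class (CPM). Ratios had 0.5 added to each count, and a gene was counted in a comparison where both libraries together held at least 20 of its UMIs. Intervals are at 95% (Poisson for levels, conditional binomial for ratios, Clopper-Pearson for shares). For a median of the 8 genes, the medians of their 8 lower and 8 upper bounds are given, which have no stated coverage. A count of 0 was read as allowing up to 3 counts. For co-detection each barcode was thinned without replacement to 1000 UMIs.

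Named genes beside the 8 were the 10 most like them across classes (log2 of CPM + 10, at least 50 CPM in 1 point of at least 20 barcodes), the 10 highest and 10 lowest within macrophages, and the 4 of highest mean CPM in each of 7 lists. Of those most like the 8 across classes, 1 is not reported here. Abcg1 and Cxcl13 were named outside this rule, Cxcl13 after its values were seen and Abcg1 for the title of the series. Epn1, Epn2 and Lyz2 were given for the labels. Ratios and intervals were tested on simulated counts for the western diet genotype comparison (10177 genes, 200 changed by 4 fold). Of the intervals 97.1% held the true value, and 96.4% of changed and 4.21% of unchanged genes were past 2 fold. The simulated counts were independent Poisson draws per gene, without spread between barcodes or animals. They check the calculation under counting error only, and not how often intervals or 2 fold calls hold in these data. Python 3.11.15, numpy 2.4.6, scipy 1.17.1 and pandas 2.3.3 were used. Gene positions came from GENCODE on GRCm38, where 99.8% of the 32285 gene identifiers matched.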

Additional observations from a re-analysis of the deposited data

Results flagged for a closer look

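Lgals3 and Fabp5 went in opposite directions between the genotypes on the 2 diets. In macrophages, LysM-DKO set against WT gave a log2 ratio of 0.85 for Lgals3 on normal diet and of -0.24 on western diet in ApoE-null mice, and for Fabp5 it was 3.53 and -0.24. With 1 library per group, the difference between the diets was not tested. The pattern depended on the choice of barcodes: Lgals3 on normal diet was at -0.23 without barcodes that met another class, and on western diet Lgals3 (0.14) and Fabp5 (0.17) were above 0 with a C1q sum of at least 2.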

How the results depend on the processing

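Of the group values (medians, counts of genes past 2 fold, shares with 4 or more genes), 165 stayed the same, 35 moved, and none was reversed. A share was the same inside its counting interval, a median inside the range of bounds given with it, and a count within 1.5 times. Only a median whose main range excludes 0 could be called reversed. Counts, shares and the normal diet genotype median could not be. On normal diet the count of genes 2 fold higher in LysM-DKO was 1 in place of 2 with at most 5% mitochondrial UMIs, with a C1q sum of at least 2, without barcodes that met another class, with equal weight per barcode, thinned to 1000 UMIs, without the barcode holding most of each gene, and with at least 100 UMIs per gene, and the count lower was 1 in place of 0 with at most 5% mitochondrial UMIs and without barcodes that met another class. The western diet genotype median of -0.41 was -0.76 with at most 5% mitochondrial UMIs, -0.012 with a C1q sum of at least 2, -0.65 with at least 10, -0.75 with a C1q sum of at least 0.5% of UMIs, -0.54 without barcodes that met another class, -0.66 with equal weight, -0.54 thinned, -0.83 with classes set after thinning and -0.56 without the top barcodes. The count lower was 1 in place of 2 with at most 5% mitochondrial UMIs and with a C1q sum of at least 2. The diet median was 4.28 in WT with a C1q sum of at least 0.5%, and in LysM-DKO 2.75 without barcodes that met another class and 1.48 thinned. The share with 4 or more genes in WT/ApoE-/- was 32.6% with at least 2000 UMIs, 24.6% with a C1q sum of at least 2, 44.1% with at least 10, 45.4% with 0.5%, 46.5% without barcodes that met another class and 41.2% with classes set after thinning. In WT on normal diet it was 0 with at most 5% mitochondrial UMIs, with a C1q sum of at least 10 or of 0.5%, without barcodes that met another class and with classes set after thinning, and in LysM-DKO on normal diet it was 0 with at most 5% mitochondrial UMIs. Of single genes, Lgals3 was reversed on normal diet without barcodes that met another class (-0.23). On western diet Gpnmb was reversed there (0.11), and with a C1q sum of at least 2 Gpnmb (0.29), Lgals3 (0.14) and Fabp5 (0.17) were. Cd9 and Lpl were 2 fold lower in LysM-DKO/ApoE-/- under 12 of 13 alternatives each. The cause of these shifts was not tested. Removing the top barcodes and setting classes after thinning were chosen after seeing the data. A minimum of 500 UMIs gave no thinned share, since barcodes under 1000 UMIs cannot be thinned to 1000. No paired analysis was possible because each group is 1 library. Few UMIs limit the normal diet values of Gpnmb and Syngr1.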
